A study of Homo sapiens with 3 samples.

Results

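The SOX genes encode transcription factors that share a DNA-binding domain, the HMG box, first described in the sex-determining factor SRY. The genes examined were 10 SOX genes chosen by symbol from the 20037 protein-coding genes of the RefSeq gene table. They were SOX7, SOX17 and SOX18 of the SOXF family, SOX4 and SOX11 of SOXC, SOX9 and SOX10 of SOXE, SOX2 of SOXB1, and SOX5 and SOX6 of SOXD. The cells were of the hCMEC/D3 line, human endothelial cells of brain microvessels that were immortalized, per the labels, and grown to confluence on collagen. They are 1 line and not primary brain endothelium. Accessible chromatin was profiled by ATAC-seq, in which the Tn5 transposase cuts and tags open DNA, in 1 library (ATAC replicate 2) with no other cell type, treatment or genotype. The values below therefore have no replicate, and no test between groups was made. The 2 RNA libraries of the series were not used here because their transcript identifiers could not be paired with genes.

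SOX proteins bind the minor groove of DNA through the HMG box, bend it, and usually act with a partner factor that decides which genes they control. The SOXF factors are known for their part in endothelial specification, arterial identity and lymphatic development, and SOX17 is also known from vessel maturation in the brain. SOX2, SOX9, SOX10 and SOX11 are best known outside endothelium, in neural stem cells, cartilage and glia, neural crest and oligodendrocytes, and newborn neurons.

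The library held 106415 broad peaks called from 22188172 tags. A peak was counted for a gene when it overlapped the gene or the 50 kb on either side. It was placed at a gene end when it overlapped the 1 kb on either side of an end, inside when it touched the gene but neither end window, and otherwise in the flank. Either end of a gene counted, not only its start. Pileup is the caller's number of overlapping tags, taken here as a mean over the peak and not as its summit. A peak is called high, low or main by this mean, which does not rank the number of tags it holds. The 95% Poisson interval of a pileup was computed from the number of tags estimated from pileup and length, and covers counting error only. Marker genes of several cell types were placed likewise. An end peak was called for 10 of 10 endothelial markers, 6 of 10 neuronal and glial markers and 8 of 10 mural and mesenchymal markers, compared with 72.8% of all protein-coding genes. An end peak did not separate these classes sharply.

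Start sites in the RefSeq promoter table (GRCh38.p14) were found for 4 of the 10 genes, SOX2, SOX4, SOX5 and SOX6. SOX7, SOX9, SOX10, SOX11, SOX17 and SOX18 are not in that table. Each of the 4 genes had a start site whose 300-base window, from 250 bases before the start to 50 after it, overlapped a peak. Counted by window, as some genes have several starts, 4 of their 8 windows overlapped a peak, compared with 64.8% of the windows of protein-coding genes. The 250 bases upstream of these starts are shown because they lie under or beside the end peaks described below. Capitals mark matches on either strand to 6 short motifs. The SOX core is contained in ATTGTT. It is also contained in the related motif written ACAATG, and matches of these motifs can share bases when they overlap on opposite strands. The GC box was searched as GGGCGG and the CAAT box as CCAAT. The TATA box was searched as TATAAA. A loose form of the binding site of AP-1 factors was searched as TGANTCA, with any base at N.
SOX4, chr6:21593501-21593750, plus strand: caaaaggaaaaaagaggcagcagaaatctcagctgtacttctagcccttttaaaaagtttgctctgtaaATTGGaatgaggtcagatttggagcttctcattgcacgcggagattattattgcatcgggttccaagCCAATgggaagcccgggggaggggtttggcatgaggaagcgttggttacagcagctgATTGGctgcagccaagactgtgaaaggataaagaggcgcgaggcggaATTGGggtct
SOX2, chr3:181711675-181711924, plus strand: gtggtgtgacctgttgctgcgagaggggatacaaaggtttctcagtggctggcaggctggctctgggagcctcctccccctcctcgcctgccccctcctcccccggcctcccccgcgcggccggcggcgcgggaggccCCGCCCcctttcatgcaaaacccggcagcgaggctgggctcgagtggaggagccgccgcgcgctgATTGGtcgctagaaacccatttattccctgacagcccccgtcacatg
SOX5, chr12:24562492-24562741, minus strand: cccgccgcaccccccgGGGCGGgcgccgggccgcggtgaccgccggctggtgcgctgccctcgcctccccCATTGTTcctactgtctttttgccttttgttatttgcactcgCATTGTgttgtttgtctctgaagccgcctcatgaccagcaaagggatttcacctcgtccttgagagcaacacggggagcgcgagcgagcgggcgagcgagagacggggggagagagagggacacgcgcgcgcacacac
SOX6, chr11:16738478-16738727, minus strand: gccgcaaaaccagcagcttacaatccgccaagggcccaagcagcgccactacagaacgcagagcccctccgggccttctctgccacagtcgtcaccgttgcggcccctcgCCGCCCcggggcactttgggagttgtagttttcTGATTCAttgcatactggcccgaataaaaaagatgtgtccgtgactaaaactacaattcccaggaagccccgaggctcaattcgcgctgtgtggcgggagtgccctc

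The 4 upstream sequences differed in base composition and in the motifs they held. The SOX4 sequence had 4 CCAAT matches and no GC box, and its GC content was 48.8%, lower than in 80.1% of coding promoters. The SOX2 sequence held 1 GC box and 1 CCAAT match at a GC content of 68.8%. The SOX5 sequence held 1 ATTGTT match and 2 ACAATG matches, of which 1 overlaps the ATTGTT match, and 1 GC box. Its ratio of observed to expected CpG dinucleotides was 1.0, above that of 89.7% of coding promoters. The SOX6 sequence held 1 GC box and 1 TGANTCA match, with T as its middle base. Over 22199 upstream sequences of protein-coding genes, ATTGTT was present in 6.49%, ACAATG in 6.92%, GGGCGG in 53.7%, CCAAT in 32.7%, TATAAA in 9.0% and TGANTCA in 5.36%. All 4 printed sequences belong to windows that overlapped a peak. Among such windows ATTGTT was present in 4.19%, ACAATG in 4.71% and GGGCGG in 68.8%. There CCAAT was present in 33.3%, TATAAA in 5.09% and TGANTCA in 4.25%. None of the 4 printed sequences held a TATAAA match. Some of the other SOX6 starts, whose windows overlapped no peak, held TATAAA and ATTGTT matches. A match describes letters in this window and not binding.

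A peak at a gene end was called for 7 of the 10 SOX genes (70.0%, 95% Wilson interval 39.7% to 89.2%), compared with 72.8% of all protein-coding genes. The interval is wide and the 10 genes were chosen by symbol. This count therefore cannot decide whether the SOX genes as a set differ from all genes. The 7 were SOX7, SOX17, SOX18, SOX4, SOX2, SOX5 and SOX6, and SOX9, SOX10 and SOX11 had none. All 3 SOXF genes and 4 of the 7 other genes were among them. In genes of similar length, meaning a length within 1.5 times that of the SOX gene, the share with an end peak was 68.2% for the length of SOX7, 62.6% for SOX17 and 56.1% for SOX18. It was 67.6% for SOX4, 59.5% for SOX2, 50.6% for SOX5 and 57.4% for SOX6. For the genes without an end peak it was 67.4% (SOX9), 73.1% (SOX10) and 69.8% (SOX11). SOX9, SOX10 and SOX11 also had no peak inside, and neither kind of peak was found for 16.3% of all protein-coding genes.

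In all, 74 peaks lay in the 10 neighbourhoods, with 9 at gene ends, 13 inside and 52 in the flanks. None was counted for more than 1 SOX gene. Of the flank peaks, 8 lay at an end of another protein-coding gene. The 74 peaks had a median pileup of 25.2 tags and a median length of 537 bp, compared with 21.6 tags and 452 bp over all peaks. The number per gene ran from 0 for SOX11 to 17 for SOX6.

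**Figure D1:**
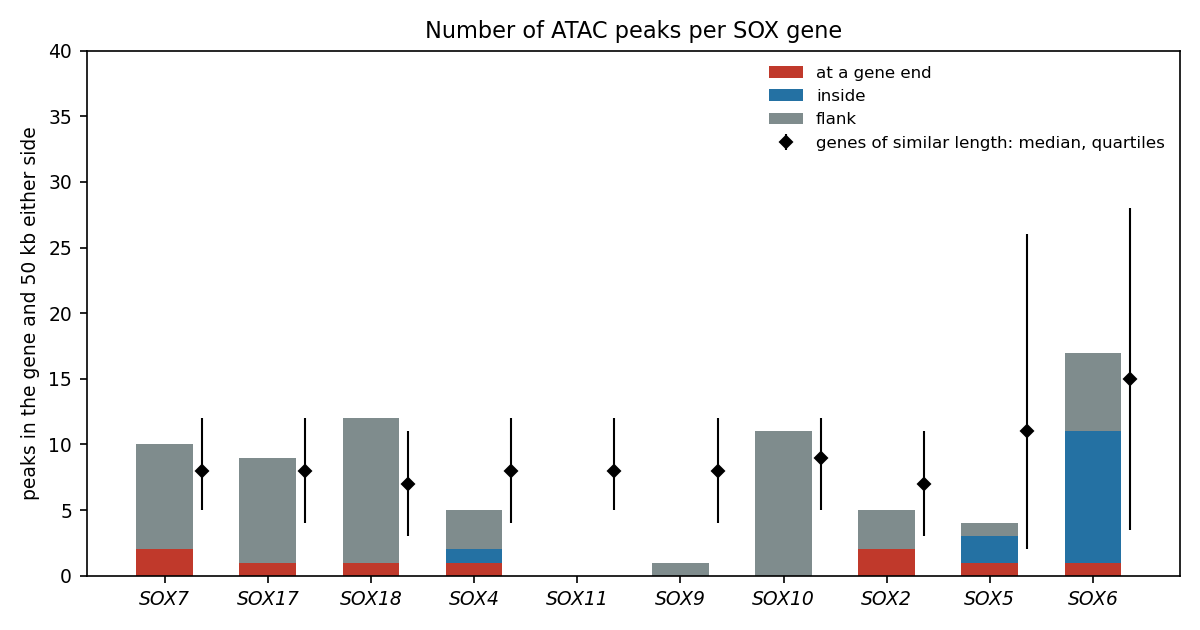
Peaks per SOX gene, stacked by place (red, within 1 kb of a gene end; blue, inside; grey, in the 50 kb flanks). Diamonds and bars give the median and quartiles of protein-coding genes of similar length. SOX11 and SOX9, with 0 and 1 peaks, lie below the lower quartile, and SOX18, with 12, lies above the upper quartile.

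The SOXF genes each carried a peak over the gene body, and in SOX7 and SOX17 it was among the longest end peaks in the library. SOX7, an endothelial and haematopoietic regulator, lies on chromosome 8 from 10723768 to 10730511 (GRCh38, 6744 bp). Its main end peak, from 10728521 to 10730951, was 2431 bp long with a pileup of 37.0 tags (33.7 to 40.6). It was longer than the main end peak of 99.2% of the 14595 coding genes that had one, but its pileup was above only 34.2% of them. The same peak overlaps the antisense gene SOX7-AS1, so accessibility at the start of either gene cannot be told apart here. A second, smaller end peak of 643 bp and 14.5 tags (10.6 to 19.3) ended 775 bp below the gene.

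SOX17, which acts in arterial identity, lies on chromosome 8 from 54457935 to 54460892 (2958 bp). A single peak of 2272 bp began 165 bp below the gene and covered 71.2% of its body. Among 1648 genes of similar length the median body coverage was 8.09%, and 99.3% of them were covered less. The pileup was 35.2 tags (31.8 to 38.8), above 31.3% of these coding genes, and the length exceeded 98.4% of them. SOX17 and SOX7 thus had long end peaks of pileup below the coding median of 45.7 tags, and their pileup intervals overlap.

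SOX18, which induces PROX1 during lymphatic development, lies on chromosome 20 from 64047582 to 64049639 (2058 bp). Its only peak over the gene, from 64048096 to 64048746, was 651 bp long with a pileup of 25.6 tags (20.4 to 31.7). Unlike the SOX7 and SOX17 peaks it was shorter than most end peaks, exceeding 19.1% of coding genes in length and 19.0% in pileup. SOX18 is so short that the 2 end windows almost meet, and with windows of 500 bp this peak no longer counted as an end peak. Its −log10 q was 3.33, so it was also lost when 5 was required. Its pileup interval ended just below that of SOX17, which begins at 31.8. With end windows of 2500 bp the peak 2.5 kb below the gene counted as an end peak, and the highest end pileup of SOX18 became 54.6 tags, above that of SOX17.

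Fold enrichment, the peak over the local background estimated by the caller, was low at all 3 SOXF genes and at SOX4. It was 2.96 at SOX7, 3.30 at SOX17, 2.42 at SOX18 and 3.04 at SOX4, compared with a median of 5.02 for the main end peaks of coding genes. The local background at these peaks lay between 9.98 and 11.8 tags, compared with a median of 7.88. With no control library, this background was taken from tags of the same library over a range of 10000 bp, so a peak's own tags count in it. When a fold of at least 4 was required, the main end peaks of SOX7, SOX17, SOX18 and SOX4 were all lost, as was that of SOX5 at a fold of 3.94, and SOX7 kept its small one of 14.5 tags. The part of the local background in these low folds was not tested.

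**Figure D2:**
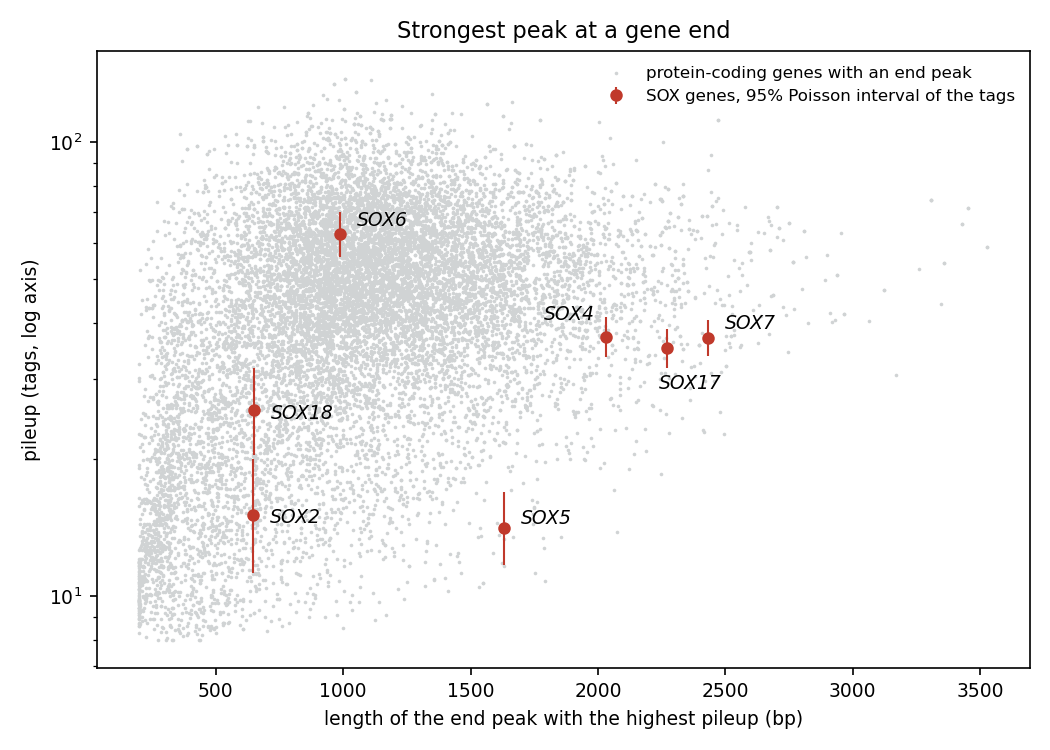
Length in bp (x axis) and pileup in tags (y axis, log scale) of the end peak with the highest pileup, for SOX genes (red, bars are 95% Poisson intervals) and for 14595 protein-coding genes (grey). SOX7, SOX17 and SOX4 sit at lengths over 2000 bp with pileups of 35.2 to 37.2 tags, while SOX6 has the highest pileup at 62.7 tags.

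Near SOX7 and SOX18 the peaks of highest pileup lay in the flanks rather than at the gene, while near SOX17 the pileups were level. By tags estimated from pileup and length, the peaks over SOX7 and SOX17 held the most in their neighbourhoods, 450 and 400. The pair of flank peaks of highest pileup near SOX7 held 262 and 358, and that near SOX17 held 120. Over SOX18 the peak held 83.4, and the most in its flanks was 324. Around SOX7 there were 10 peaks, more than for 57.9% of 2812 genes of similar length. Without flank peaks at ends of other coding genes the 10 peaks were more than for 81.5%, with flanks of 100 kb the value was 89.8%, and with 500 kb it was 29.0%, so the place of SOX7 among these genes turned with the flank width. The pair of highest lay 7.1 and 12.2 kb below the gene, with pileups of 78.7 (69.4 to 88.8) and 82.3 tags (74.0 to 91.3). These exceeded 98.5% and 98.9% of all peaks in the library and overlapped no annotated gene. A further 4 flank peaks, 32.1 to 46.6 kb below, lay within C8orf74.

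Around SOX17 there were 9 peaks, more than for 53.3% of genes of similar length. With flanks of 20 kb the value was 73.2%, and with 500 kb it was 27.5%. When a fold of at least 4 was required it was 75.9%, and with as many peaks kept by pileup 45.3%. The pileups of the 9 peaks ran from 12.8 to 35.3 tags. The highest flank peak, at 35.3 tags (29.2 to 42.2), and the gene's own overlapped in their intervals. The highest fold was 8.12, at a peak 35.1 kb below the gene that overlapped no annotated gene. The local background of that peak was 2.37 tags, the genome-wide floor of the caller, where 34.7% of all peaks lay. A pair of flank peaks, 5.5 and 9.2 kb above the gene, lay at the ends of the predicted coding gene LOC100129098.

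The neighbourhood of SOX18 held 12 peaks, more than for 76.7% of 1217 genes of similar length, in a stretch crowded with other genes. Of its 11 flank peaks, 5 lay at ends of C20orf204, TCEA2, RGS19, OPRL1 or LKAAEAR1, and without them the count was 7, more than for 65.0%. The peak nearest below the gene, 2.5 kb away, overlapped no annotated gene and had a pileup of 54.6 tags (44.9 to 65.8), above the interval of the peak over SOX18 itself. The highest, at 66.4 tags (57.6 to 76.2), lay 13.2 kb above, within TCEA2. When a fold of at least 4 was required, 3 of the 12 peaks were left, more than for 32.5% of genes of similar length. With as many peaks kept by pileup the value was 83.2%, and with all peaks and flanks of 20 kb it was 93.5%.

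**Figure D3:**
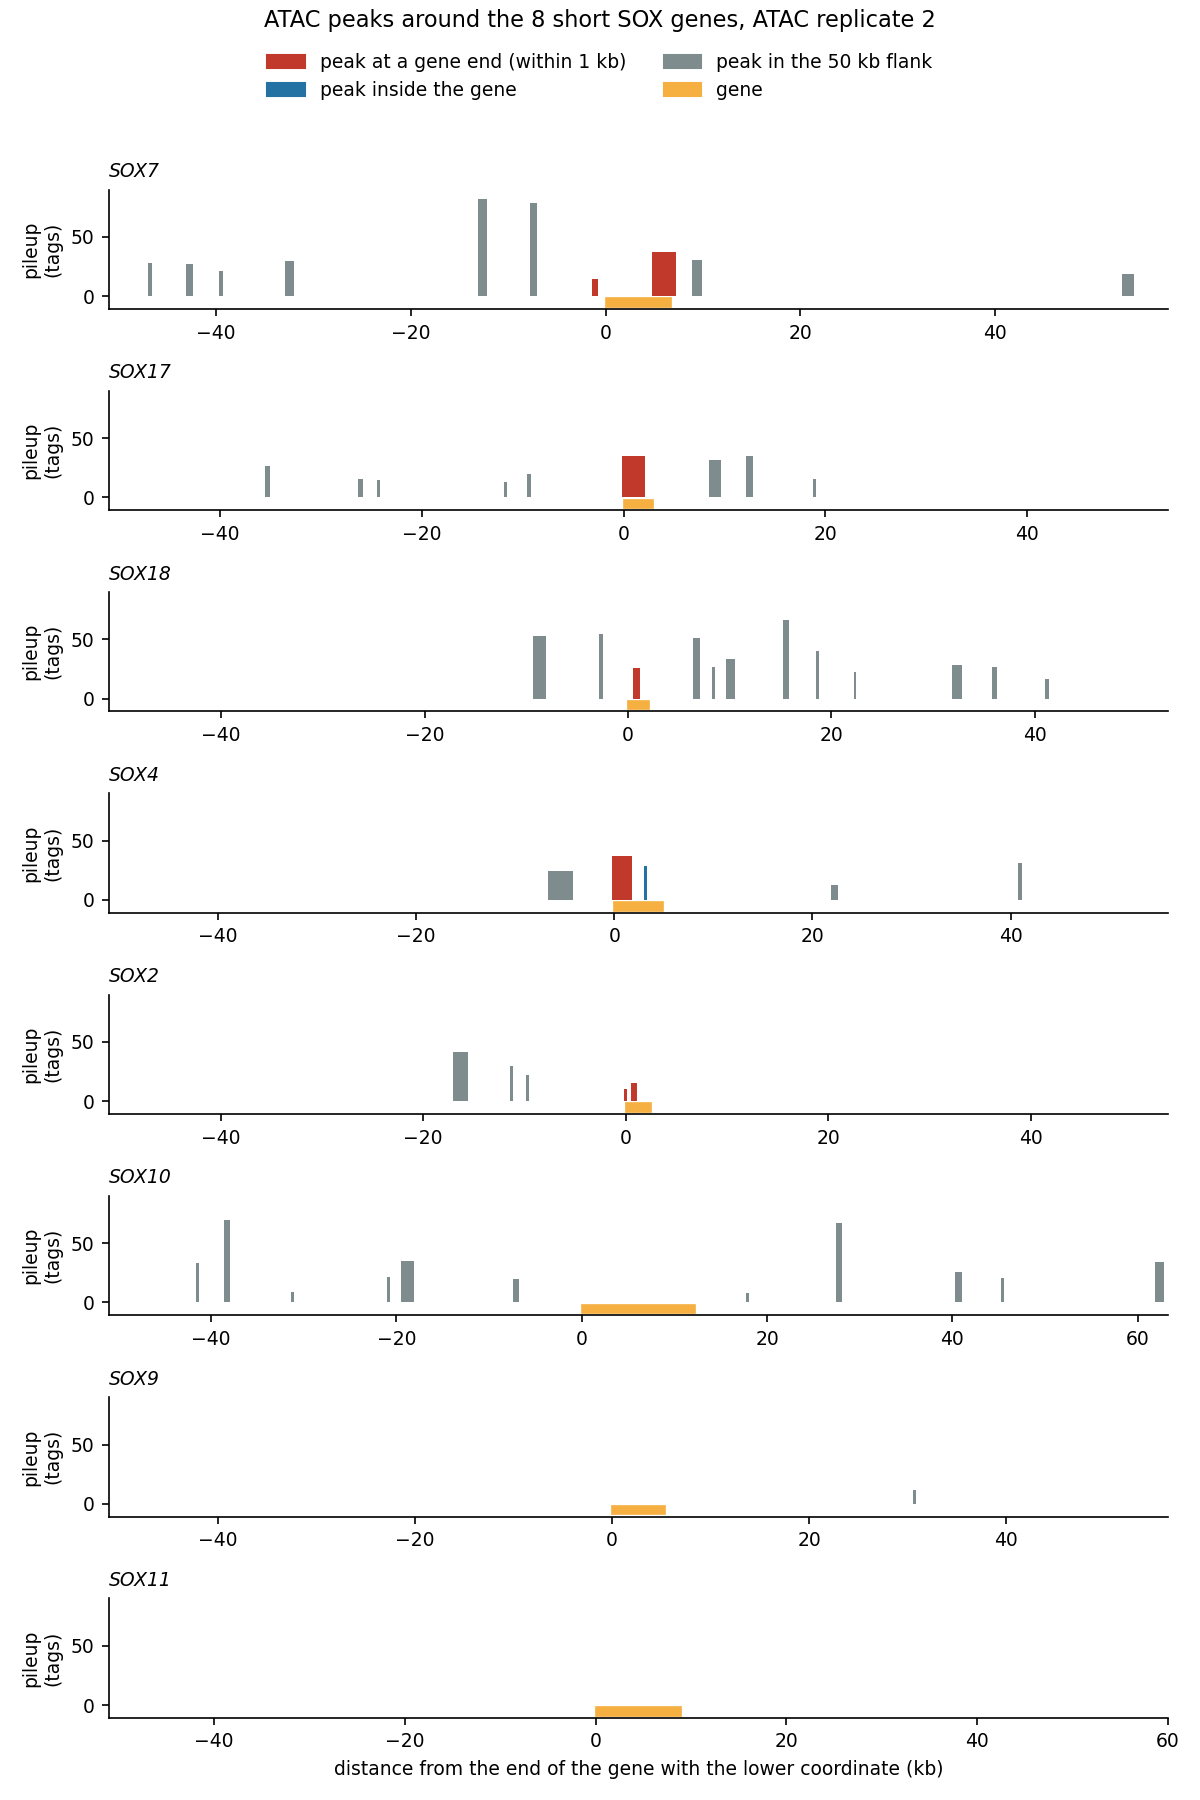
Peaks around the 8 short SOX genes: distance in kb from the gene end with the lower coordinate (x axis) against pileup in tags (y axis), coloured by place, with the gene in orange. SOX7 has its highest peaks, 78.7 and 82.3 tags, below the gene, and SOX9 and SOX11 have 1 and 0 peaks.

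The SOXC genes SOX4 and SOX11, which act together in neuronal and mesenchymal progenitors, differed in end peaks, which SOX4 had and SOX11 did not, and both had few peaks around them. SOX4, a single-exon gene on chromosome 6 from 21593751 to 21598619 (4869 bp), had 5 peaks, fewer than 68.4% of 2288 genes of similar length. Its end peak ran from 266 bp upstream of the start to 1766 bp downstream, covering the whole promoter window printed above. It was 2033 bp long, longer than that of 96.6% of coding genes, with a pileup of 37.2 tags (33.6 to 41.2). With a smaller peak inside the gene, 42.4% of the body was covered, more than in 98.8% of genes of similar length. The longest of all 74 peaks, 2501 bp at 24.7 tags (22.0 to 27.6), lay 4.2 kb upstream of SOX4. The highest fold of the 74, 9.43, belonged to a peak of 394 bp 35.9 kb downstream. Its local background was at the floor of 2.37 tags, like that of 22 of the 74 peaks. Its pileup of 30.8 tags was above that of 68.0% of all peaks.

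SOX11, on chromosome 2 from 5692384 to 5701385 (9002 bp), had no peak in the gene or within 50 kb. No peak in that range was found for 4.74% of all protein-coding genes and for 4.85% of 3277 genes of similar length. The nearest peaks were 63.7 kb below and 1071.6 kb above. The stretch without peaks around SOX11 was 1144.3 kb long, the 220th longest of 106391 stretches between neighbouring peaks. A stretch at least as long held 2.28% of protein-coding genes.

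The SOXE genes SOX9 and SOX10 had no peak at an end or inside. SOX9, the main regulator of cartilage formation and also active in glia, lies on chromosome 17 from 72121020 to 72126416 (5397 bp). Within 50 kb it had 1 peak, of 287 bp and 11.7 tags (6.82 to 18.8), lying 25.2 kb above the gene. Among 2452 genes of similar length, 89.6% had more. Below the gene the next peak was 1561.8 kb away, and the peak-free stretch of 1592.4 kb contained SOX9 as its only protein-coding gene. Only 1.34% of protein-coding genes lay in a stretch at least as long. The 500 kb on the other side held 27 peaks, compared with 0 in the 500 kb below. The antisense gene SOX9-AS1, which ends 227 bp from SOX9, lies within the same stretch.

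SOX10, which drives neural crest and oligodendrocyte fates, differed from SOX9 in its surroundings. The gene, on chromosome 22 from 37972312 to 37984555 (12244 bp), carried no peak, whereas 73.1% of 3788 genes of similar length had one at an end. Its flanks held 11 peaks, more than for 62.4% of those genes. With flanks of 20 kb it had 4 peaks, more than for 37.8%, and with 500 kb 130 peaks, more than for 98.3%, so its place turned with the flank width. SOX10 lies within the extent of POLR2F, a subunit of RNA polymerases, and 7 of the 11 peaks overlap POLR2F. The highest of these, 67.4 tags (59.0 to 76.6) at a fold of 8.31, lay 15.2 kb above SOX10. A peak of 69.4 tags (60.9 to 78.9) lay 38.0 kb below, within MICALL1. The peak-free stretch around SOX10 was 24.6 kb long, and 14.5% of protein-coding genes lay in one at least as long.

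**Figure D4:**
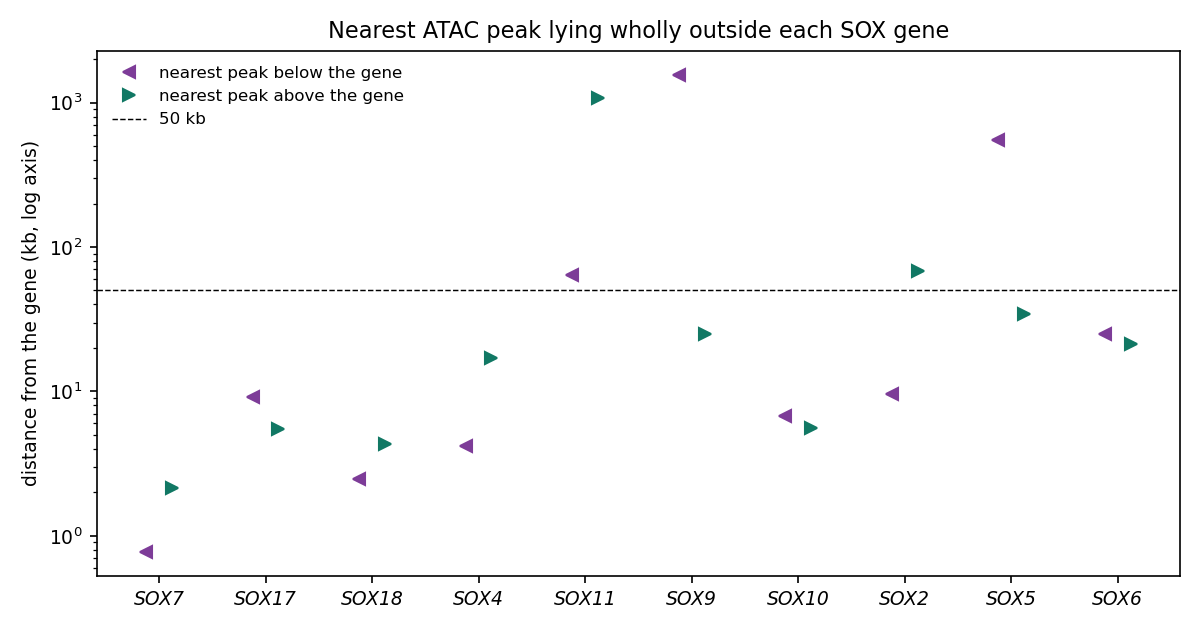
Distance in kb (y axis, log scale) from each SOX gene to the nearest peak lying wholly below (purple) and above it (green) along the chromosome, with a dashed line at 50 kb. SOX9 (1561.8 kb below), SOX11 (1071.6 kb above) and SOX5 (550.2 kb below) have the farthest peaks.

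SOX2, a factor of pluripotent and neural stem cells, had small end peaks. It is a single-exon gene on chromosome 3 from 181711925 to 181714436 (2512 bp), inside the long noncoding gene SOX2-OT. One peak of 236 bp and 10.5 tags (5.46 to 18.1) spanned the start, and a second of 647 bp and 15.1 tags (11.2 to 20.0) lay within the gene. The higher of them exceeded 7.42% of coding genes with an end peak. The first overlapped 216 of the 300 bases of the promoter window. The 3 flank peaks lay 9.6 to 15.6 kb upstream within SOX2-OT, at 22.4 to 41.7 tags. The highest, 41.7 tags (37.1 to 46.7) over 1428 bp, was above the intervals of both end peaks. Downstream, no peak was called for 67.8 kb.

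SOX5 and SOX6 lack an activation domain of their own and act with SOX9 in cartilage. Both are very long genes, and they differed at their starts. SOX6, on chromosome 11 from 15966449 to 16738477 (772029 bp), had an end peak of 989 bp with a pileup of 62.7 tags (55.9 to 70.1), above that of 78.4% of coding genes and the highest end peak of the 10. Its fold of 7.04 was also the highest among them. This peak covers the upstream sequence printed above and also the end of C11orf58, a gene 170 bp away, so it cannot be assigned to either gene alone. Of the 5 SOX6 start sites in the promoter table, the 4 others lie 262.1 to 381.9 kb inside the gene, and none of their windows overlapped a peak. Their upstream GC content was 27.2% to 40.8%, compared with 58.8% for the start under the peak. Median GC content was 66.0% in coding promoters with a peak and 52.0% in those without.

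SOX6 held 10 peaks inside, with pileups of 11.3 to 28.1 tags, in separate groups. A stretch of 378.3 kb without peaks, 49.0% of the gene, divided the peaks near its far end from those near its start. The highest fold inside was 8.62, at a peak 259.8 kb from the lower end, whose local background was also at the floor of 2.37 tags. The total of 17 peaks was more than for 53.8% of 251 genes of similar length, and with flanks of 20 kb its 11 peaks were more than for 43.4%.

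SOX5, on chromosome 12 from 23529504 to 24562650 (1033147 bp), had 4 peaks, fewer than 66.7% of 156 genes of similar length. Its end peak spanned the start from 936 bp upstream to 695 bp downstream. It was long, 1632 bp, but low, 14.1 tags (11.7 to 16.9), above 6.36% of coding genes with an end peak. The lower 697.5 kb of the gene, 67.5% of its length, held no peak, as part of a stretch of 1247.7 kb. Of the 2 peaks inside, one of 13.1 tags overlapped SOX5-AS1 and one had 8.68 tags, near the lowest pileup in the list, 8.0. None of the 4 reached a −log10 q of 5.

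**Figure D5:**
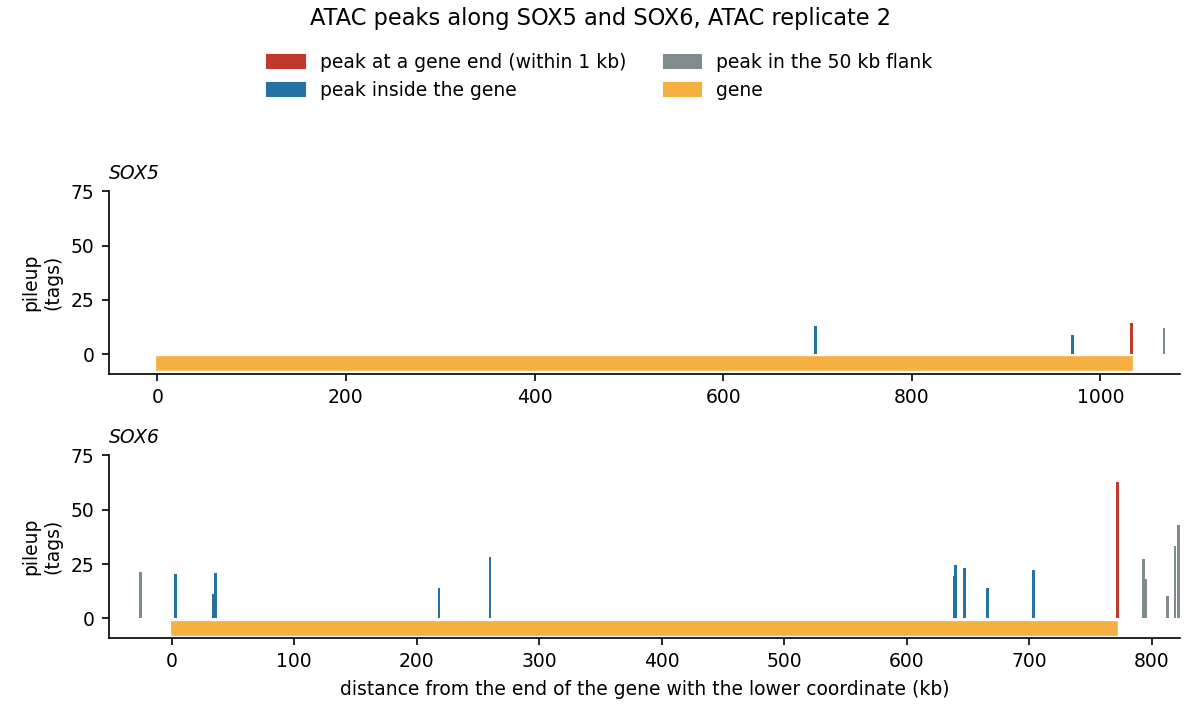
Peaks along SOX5 and SOX6: distance in kb from the gene end with the lower coordinate (x axis) against pileup in tags (y axis), coloured as in the plot of the short genes; bars are widened to be visible and do not show length. The annotated start is at the right end of both genes, where the end peaks of 14.1 and 62.7 tags lie.

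Ordered by pileup of the main end peak, the genes were SOX6, SOX4, SOX7, SOX17, SOX18, SOX2 and SOX5. The intervals of SOX4, SOX7 and SOX17 overlapped their neighbours in that order, as did those of SOX2 and SOX5. Intervals lay well apart only between SOX6 and SOX4. The interval of SOX18 ended at 31.7 tags, where that of SOX17 began at 31.8. That of SOX2 ended at 20.0 tags, where that of SOX18 began at 20.4. As the tags are estimated from pileup and length, these margins are too narrow to be called gaps. This order held for end windows of 1 kb, and with 2500 bp SOX18, at 54.6 tags, stood above SOX4, SOX7 and SOX17. The median over the 7 genes was 35.2 tags, compared with 45.7 for coding genes. Their median length was 1632 bp, compared with 1058 bp. By length the order was different, with SOX7, SOX17 and SOX4 over 2000 bp, as were 3.74% of the coding genes' main end peaks. By estimated tags the order was SOX7 (450), SOX17 (400), SOX4 (379), SOX6 (310), SOX5 (115), SOX18 (83.4) and SOX2 (48.8).

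Across the 19 SOX genes examined, the 10 and the 9 others, 12 had an end peak, compared with 72.8% of all protein-coding genes. By family these were 3 of 3 SOXF, 3 of 3 SOXD, 2 of 3 SOXC, 1 of 3 SOXB1, 1 of 2 SOXB2 and 0 of 3 SOXE genes, and the single genes SOX15 and SOX30. The families were drawn up after the values of the 10 genes were seen. SOX8, the other SOXE gene, had 6 flank peaks and none at or in the gene. SOX1, SOX3 and SOX14 also had no end peak.

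Genes known as partners or targets of these factors were placed likewise. Among SOXF partners and targets, 8 of 12 had an end peak. They included CLDN5, a tight junction gene, CDH5, which encodes VE-cadherin, and the Notch pathway genes DLL4, NOTCH1 and NOTCH4. The highest end pileup was 92.8 tags at NOTCH4 and the lowest 39.7 tags at NOTCH1. MEF2C and RBPJ, which encode partners of SOX18, had no end peak but 14 and 16 peaks inside. PROX1, the lymphatic target of SOX18, had no end peak and 1 peak inside, and VCAM1 had no end peak and 1 inside. An end peak was found for 1 of 5 SOX9 targets (COL11A2, but not COL2A1, ACAN, COL9A1 or MATN1), 4 of 5 SOX10 targets, 2 of 4 SOX2 partners and targets, and 2 of 3 SOX4 and SOX11 targets. These lists are short, and their shares stand beside 72.8% over all protein-coding genes.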

How the data were processed

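The ATAC peak list was analysed as the authors deposited it. Per the file headers it was made with MACS 2.2.7.1 in broad mode, with no control library, on 1 ATAC library. The caller moved tags by -100 bp, extended them to 200 bp, kept 1 tag per position (22188172 of 31532245 tags) and assumed an effective genome of 1870000000 bp, a mouse setting. Per the file headers the pileup signal, the fold enrichment ratio and the −log10 q-value of each peak are the caller's own, and served here to rank, filter and describe peaks of this list alone. The submitters' processing notes name Bowtie2, SAMtools 1.13 and Picard, and the builds GRCh38 and mm10, without roles. GRCh38 was taken for the peaks: 51.9% of 35116 RefSeq promoter windows overlapped a peak, compared with 5.99% or less when moved by 2 kb or more.

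Peaks were placed by gene extents of RefSeq GRCh38.p14 with an overlap of at least 1 bp, in Python 3.11.15 with pandas 2.3.3 and scipy 1.17.1. Placement was tested on simulated data against a slower count. The local background was computed from pileup and fold with the caller's pseudocount of 1, and tags per peak as pileup times length over 200, which takes the pileup as a mean over the peak. Genes and lists were chosen with earlier results of these data known. All 10 genes are described. Of the partner and target list the genes named are those without an end peak and the highest and lowest, with others as examples chosen after their values were seen. No proteins were compared. The planned start-site alternative could be made for 4 genes.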

Additional observations from a re-analysis of the deposited data

How the results depend on the processing

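Among 230 values under other settings, 135 were close to the reported one and 95 moved. Close was taken as a factor of 1.5 for counts, the counting interval for pileups and the 95% Wilson interval for percentiles. When a fold of at least 4 was required, 3 of 10 SOX genes kept an end peak (56.0% of coding genes did), with 3 peaks at their ends, 44 in the neighbourhoods and a median end pileup of 15.1 tags. SOX7 was kept only through its small peak of 14.5 tags, 775 bp below the gene. With as many peaks kept by pileup, 5 peaks at 5 genes were left at the ends, and 65.6% of coding genes kept an end peak. The 74 peaks became 46 with flanks of 20 kb, 133 with 100 kb and, in an alternative chosen after seeing the data, 473 with 500 kb, which follows from the width. With annotated starts alone, 4 genes could be judged and all 4 had a peak. By window this was 4 of 8, compared with 64.8% of the windows of protein-coding genes. The peaks at the SOX2 and SOX5 starts had −log10 q of 2.16 and 4.89, below the 5 of the q filter. Windows of 500 and 2500 bp gave 6 and 7 genes, compared with 69.2% and 79.2% of coding genes. An overlap of 200 bp gave 7 genes (71.5% of coding genes) and the q filter 5 (66.7%). No paired analysis was possible because the ATAC group is a single library. Absence of a peak means only that none was detectable at this depth and with the caller's settings, where the lowest called pileup was 8.0 tags. The background floor of 2.37 tags rests on the assumed genome size, a mouse setting, and a human size was not tried.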

Other observations

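The SOX genes outside the 10 showed several further patterns. SOX12, a SOXC gene like SOX4 and SOX11, had a main end peak of 2300 bp and 65.2 tags, longer than that of 98.6% of coding genes and higher than 81.4%. SOX13, a SOXD gene, had 2 end peaks, 6 inside and 9 in the flanks, and its main end peak reached 60.5 tags. SOX15 had 3 end peaks, the highest with 47.8 tags over 377 bp. SOX30 had 1 end peak of 16.7 tags. At SOX21 the end peak, 502 bp and 23.4 tags, lay outside the promoter window of SOX21. SOX1 and SOX3, the SOXB1 genes beside SOX2, had no peak within 50 kb.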
